A study of Mus musculus with 6 samples.

Results

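Type 1 conventional dendritic cells were taken from tumour-infiltrating leukocytes by their transcripts. A cell was kept with at least 2 unique molecular identifiers (UMIs, each standing for 1 captured transcript) over Xcr1 and Clec9a together, no Siglech, at most 5 over C1qa, C1qb and C1qc, at most 1 over Cd3e, Cd3d and Cd3g, and no Cd79a. The rule found 139 cells among 26843 cells of 5 libraries: 24 of 5440 in MRX, 50 of 8898 in CTX, 17 of 4476 in Combined, 37 of 4011 in ctxd18t and 11 of 4018 in combod18t. The members were chosen by measured values of these genes, so the presence of Xcr1 and Clec9a is not a result. Siglech marks plasmacytoid dendritic cells, the C1q genes macrophages, the Cd3 genes T cells and Cd79a B cells, and the rule sets the low level of those genes here.

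The libraries hold live leukocytes, picked for surface CD45, out of mammary tumours of mice, and the series title names MERTK inhibition, immunomodulatory cyclophosphamide and triple negative breast cancer. The short names MRX, CTX and Combined are not spelled out in the labels and are used here as given. The shared protocol text speaks of mice treated on day 7 and harvested 3 hours later, and it lists 1 set of capture barcodes for MRX, CTX, Combined and a further library, VC, whose counts were not analysed here. The labels of ctxd18t and combod18t carry d18, read here as day 18, but the same protocol text stands on them too, so their harvest day is not settled by the labels. No other strain, age or dose was taken from the labels. Each group is 1 library, so no difference below has a replicate check and no test was run. Every interval is a 95% interval that covers counting error only, not the variation between cells or between mice. The day 18 libraries are compared with each other and not with the rest. The labels settle neither their harvest day nor their library preparation, and any effects of these could not be told apart. Library totals ran from 39820290 to 100733879 UMIs. The median depth of gated cells was 11867 UMIs (MRX), 13297.5 (CTX), 14794 (Combined), 18585 (ctxd18t) and 19129 (combod18t), with a range over cells of 3352 to 46550. Barcodes found in both members of a pair of libraries numbered 34 for CTX and combod18t, 21 for Combined and ctxd18t, and 0 for the other pairs.

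Type 1 conventional dendritic cells (cDC1) are the dendritic cells that take up dying cells and present their antigens on MHC class I to CD8 T cells, a process called cross-presentation. They need the growth factor receptor FLT3 and the transcription factors IRF8 and BATF3. They carry XCR1, a receptor for a chemokine from T and NK cells, and CLEC9A, a receptor for actin exposed by dead cells. In tumours they are known as a source of CXCL9 and CXCL10, which draw T cells that carry CXCR3, and of interleukin 12. On maturation dendritic cells switch on CCR7 and move towards lymph nodes.

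Xcr1, which the rule counts together with Clec9a, was detected in 24 of 24 gated cells of MRX, 18 of 50 of CTX, 11 of 17 of Combined, 32 of 37 of ctxd18t and 11 of 11 of combod18t. The remaining 43 cells entered through Clec9a alone, and 32 of them came from CTX. The label was then checked against genes the rule did not use. Among the 96 cells with an Xcr1 UMI, Flt3 was detected in 81, Cadm1 (an adhesion molecule of cDC1) in 77, Irf8 in 89, Wdfy4 (a cross-presentation factor) in 91, Naaa (a lipid hydrolase) in 94 and Batf3 in 59. Of the label's own markers Flt3 alone is outside the rule, and in CTX it was detected in 11 of the 18 cells with an Xcr1 UMI. Csf1r, the receptor that maintains macrophages, was detected in 11 of the 96 cells and Lyz2 (lysozyme) in 83.

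The 32 CTX cells without an Xcr1 UMI had another profile. Flt3 was detected in 5 of them and Cadm1 in 5. Csf1r was detected in 20, Ly6c2 (a monocyte surface gene) in 18 and Fcgr1 (an Fc receptor of monocytes and macrophages) in 16. Lyz2 was detected in 31, and it did not set them apart from the cells with an Xcr1 UMI. The summed level of 15 monocyte and macrophage markers was 5729 CPM (counts per 1e+06 counts) in them, with no marker of the list at 0, against 1353 CPM in the 18 CTX cells with an Xcr1 UMI. The 6 Combined cells without Xcr1 were alike, with Flt3 in 1, Cadm1 in 0, Csf1r in 4 and 4859 CPM over the same list. The 5 such cells of ctxd18t were not, with Flt3 in 5, Cadm1 in 4 and 507 CPM. Among the 32 CTX cells the other genes of the check were detected more often: Naaa in 28, Irf8 in 26, Wdfy4 in 19 and Batf3 in 9. Flt3 and Cadm1 were thus not detected in most CTX cells that entered through Clec9a alone, while Naaa, Irf8 and Wdfy4 were. The markers were split, so the label was not settled for these cells.

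Clec9a UMIs were also seen in cells rich in Lyz2 that the gate did not take. Outside the gate at least 1 was present in 235 of 4441 cells with 10 or more Lyz2 UMIs in CTX and in 14 of 1322 in MRX, against 4 of 573 and 3 of 317 B cells (cells with at least 2 Cd79a UMIs). The B cells were shallower, with medians of 4147 and 5207 UMIs against 11271 and 8787.5 in the Lyz2-rich cells. At the threshold itself, 123 CTX cells lay just outside with a sum of 1, of which 96 had Csf1r and 6 had Flt3. Naaa was detected in 106 and Irf8 in 93 of them, so these 2 genes were not limited to gated cells. The 16 CTX cells just inside had a sum of 2, with Csf1r in 9, Flt3 in 3, Naaa in 13 and Irf8 in 10. For MRX these numbers were 9 outside and 2 inside.

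For this reason ratios over all gated cells are set beside those for the 96 cells with an Xcr1 UMI or for 79 core cells that also have Flt3 or Cadm1 and no Csf1r, Mgl2 or Cd209a UMI, the last 2 being genes of type 2 conventional dendritic cells (cDC2). The core ratio is given where it falls below the threshold of a call or turns direction, and for other genes in part. Both subsets were chosen after the data were seen. The core holds 23 MRX, 8 CTX, 10 Combined, 27 ctxd18t and 11 combod18t cells. In CTX even the cells with an Xcr1 UMI were mixed, with Mgl2 in 6 of 18 and Cd209a in 6. In MRX Mgl2 and Cd209a were detected in 0 of 24. The exclusion terms also removed cells with cDC1 transcripts: of cells with at least 2 Xcr1 UMIs and a Flt3 UMI, 10 of 24 in combod18t and 26 of 41 in ctxd18t lay inside the gate, and a Cd3 UMI count above the limit kept out 11 and 7 of them.

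**Figure D1:**
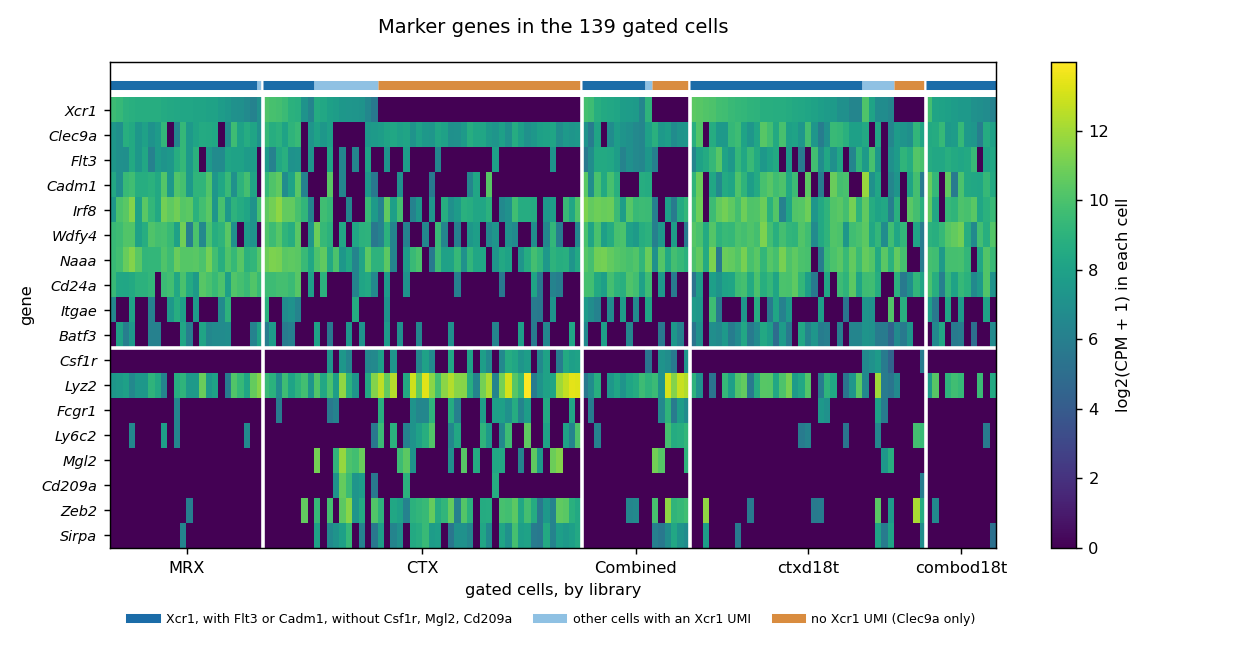
Level of 10 cDC1 genes (above the white line) and 8 genes of monocytes, macrophages and cDC2 (below it) in each of the 139 gated cells, as log2 of CPM + 1, by library. The strip marks the core cells, the other cells with an Xcr1 UMI and the cells without one, and of the 32 CTX cells without Xcr1 5 show Flt3, 5 Cadm1 and 20 Csf1r, which core cells lack by choice, while Lyz2 is seen in both.

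Among the 96 cells with an Xcr1 UMI, the lineage factors were present in every library. For Irf8 MRX had 919 CPM, CTX 849, Combined 1297, ctxd18t 919 and combod18t 778. Batf3, its partner, stood at 87.5, 51.6, 34.3, 97.8 and 54.4 CPM in the same order. Flt3 stood at 215, 139, 171, 314 and 372 CPM. Id2, a factor that dendritic precursors need, was between 1171 and 1749 CPM. Kit, the stem cell factor receptor, ranged from 171 to 364 CPM, above the 10.6 to 40.5 CPM of all other kept cells. Zbtb46, a factor of conventional dendritic cells, ranged from 50.5 to 142 CPM against 10.5 to 24.8 CPM in the other cells.

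The share of gated cells was below 1% in each library. MRX had 0.441% of kept cells (0.283 to 0.656, exact Clopper-Pearson interval), CTX 0.562% (0.417 to 0.740) and Combined 0.380% (0.221 to 0.607). Ctxd18t had 0.922% (0.650 to 1.27), and combod18t had 0.274% (0.137 to 0.489). Combod18t was lower than ctxd18t by 0.649 percentage points, with a Newcombe interval of the difference from -1.02 to -0.317. With Xcr1 required the difference was -0.524 points (-0.872 to -0.207). With at least 2 Xcr1 UMIs and a Flt3 UMI, and no exclusion terms, 24 of 4018 cells stood against 41 of 4011, a difference of -0.425 points (-0.836 to -0.0302). Among cells other than T cells the shares were 1.02% and 1.59%, and the interval of their difference (-0.561 points, -1.31 to 0.349) includes 0. That denominator held 1074 and 2334 cells, and the direction was the same with a wider interval, so no difference was shown there. The Cd3 term of the gate also removed more cells with cDC1 transcripts in combod18t, as given above.

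In MRX, CTX and Combined the direction depended on which cells were counted. CTX exceeded MRX by 0.121 points (-0.133 to 0.350) over all gated cells, but with Xcr1 required it was lower by 0.239 points, with an interval from -0.466 to -0.0528. Combined differed from CTX by -0.182 points (-0.410 to 0.0827) over all gated cells and by 0.0435 points (-0.116 to 0.251) over cells with an Xcr1 UMI. Combined differed from MRX by -0.0614 points (-0.319 to 0.208), and by -0.195 points (-0.436 to 0.0463) with Xcr1. These differences of Combined had intervals that include 0. A share is a share of sorted CD45-positive cells, so a change in other cells moves it too.

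**Figure D2:**
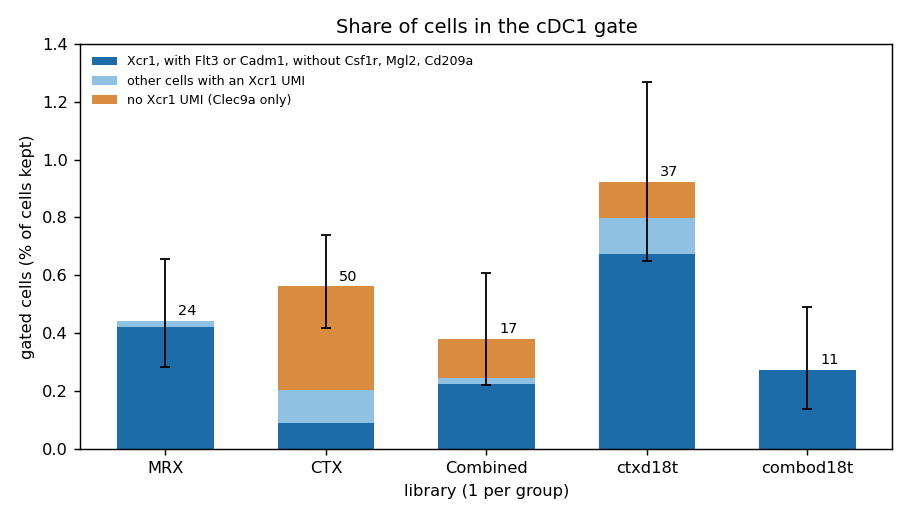
Gated cells as a percentage of the cells kept in each library, stacked by core cells, other cells with an Xcr1 UMI and cells without one. Bars are 95% Clopper-Pearson intervals of the whole gate and the number is the count of gated cells, which runs from 11 in combod18t to 50 in CTX.

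In the pair of CTX against MRX, genes induced by interferon gamma, chemokines for T cells and genes of CCR7-positive dendritic cells were higher in CTX. Levels are counts summed over the cells of a library. A gene was compared where the pair held at least 30 counts and a mean of at least 20 CPM, and it was called at a log2 ratio of CPM + 1 of at least 1 in size with a counting interval that excludes 0. Of 4659 genes compared, 12.8% were called higher and 4.98% lower in CTX, and over the cells with an Xcr1 UMI 7.53% and 4.58% of 2948. A gene that passes this filter through 1 library had to differ, so list counts are descriptions.

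Over the cells with an Xcr1 UMI, Cxcl9 stood at 121 CPM for MRX (84.9 to 168, exact Poisson interval), 1532 for CTX (1383 to 1692) and 160 for Combined (106 to 231). For ctxd18t it stood at 384 CPM (337 to 435), and for combod18t at 544 (455 to 646). It was detected in 6 of 24, 13 of 18, 5 of 11, 16 of 32 and 5 of 11 of these cells in that order, so among these cells CTX exceeded MRX and Combined in level and share of positive cells. After thinning each cell to 2000 UMIs it was detected in 2 of 24, 11 of 18, 1 of 11, 7 of 32 and 3 of 11. The log2 ratio of CTX to MRX was 4.21 (3.75 to 4.74) over all gated cells, 3.65 (3.16 to 4.19) with Xcr1 and 3.82 in the core cells. In MRX 61.1% of the 36 Cxcl9 counts were in 1 cell, and without the top cell of each library the ratio was 5.38. Among the 8 core cells of CTX, 4 held 46 to 63 Cxcl9 UMIs and the other 4 held 0. In the core of Combined 5 of 10 cells had Cxcl9, with 1 to 22 UMIs, so there the share of positive cells was the same and the counts per positive cell were lower. In B cells, read as a background, 5 of 317 had a Cxcl9 UMI in MRX and 31 of 573 in CTX. All other kept cells together had 109 CPM in MRX and 719 CPM in CTX, so the higher level of Cxcl9 in CTX was not limited to gated cells.

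The other ligands of CXCR3 were higher with it. Cxcl10 had 0 counts in MRX and 123 in CTX (62 in 18 cells with Xcr1), a level at least 17.3-fold higher when MRX is set at a floor of 3 counts. Cxcl11 had 0 counts in MRX and 165 in CTX, at least 23.2-fold higher. Cxcl16, a membrane-bound ligand of CXCR6, was higher by a log2 ratio of 1.74 (1.28 to 2.26), and 1.10 (0.54 to 1.69) with Xcr1, but by 0.25 in the core. All 4 listed chemokines were called higher in CTX over the gate and with Xcr1. Of 27 listed interferon gamma genes, 18 could be compared and 17 were called higher, with a median log2 ratio of 3.47 with genes at 0 counts at their bound, against 0.13 for all genes. With Xcr1 required, 12 could be compared and 12 were called, with a median of 3.62 against 0.04. Markers of other cells moved with them: 5 of 7 compared monocyte and macrophage markers were called higher (1 of 4 with Xcr1) and 7 of 8 cDC2 markers (4 of 5). The part of such cells in the difference was not tested.

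Guanylate-binding proteins (GBPs), which coat intracellular pathogens, are part of that list. Gbp2 had 0 counts in MRX and 167 in 36 of 50 CTX cells, at least 23.5-fold higher, and at least 12.2-fold with Xcr1 required, where 8 of 18 cells were positive. Gbp5 had 0 counts in MRX and 62 in CTX, at least 8.72-fold higher. Gbp7 was higher by 5.03 on the log2 scale (2.89 to 10.72), with 1 count in MRX, and by 2.53 in the core on 3 counts against 1. Irf1, a transcription factor of the pathway, was higher by 1.14 (0.54 to 1.82), by 1.55 in the core and by 0.91 without cycling and CCR7-type cells. Cd274, which encodes the checkpoint ligand PD-L1, was higher by 3.50 (2.60 to 4.69), by 3.64 with Xcr1 and 2.90 in the core. Socs1, the feedback inhibitor of the pathway, was higher by 4.13 (1.94 to 9.81), and by 5.22 in the core, with 1 count in MRX.

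Of 33 listed type I interferon genes, 18 could be compared and 7 were called higher and 0 lower, with a median log2 ratio of 0.37. With Xcr1 required it was 4 higher and 1 lower of 12, with a median of 0.07. Isg15, a ubiquitin-like protein of that response, was at 158 CPM in MRX and 345 CPM in CTX with Xcr1, a log2 ratio of 1.12 (0.60 to 1.67), and its ratio in the core was 0.56. Ifi44 stood at 374 CPM in MRX and 230 CPM in CTX with Xcr1.

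Promoters of some of these genes are shown because members of the lists were called in 1 direction within a pair. They are the 250 bases before the start site from RefSeq (GRCm38.p6), read 5′ to 3′ on the gene's strand. Capitals mark 2 patterns searched on both strands: the gamma-activated site (GAS), written TTCNNNGAA, and the interferon-stimulated response element (ISRE), written GAAANNGAAA. The windows are chr5:92328080-92328329 (minus strand) for Cxcl9, chr5:92348890-92349139 (minus) for Cxcl10, chr3:142496684-142496933 (plus) for Gbp5, chr3:142620413-142620662 (plus) for Gbp2 and chr4:156200819-156201068 (minus) for Isg15.
Cxcl9: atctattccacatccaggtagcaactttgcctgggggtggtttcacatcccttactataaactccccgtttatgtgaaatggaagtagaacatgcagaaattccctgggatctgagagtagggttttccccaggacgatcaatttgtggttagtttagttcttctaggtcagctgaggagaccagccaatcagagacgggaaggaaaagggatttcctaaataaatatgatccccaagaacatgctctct
Cxcl10: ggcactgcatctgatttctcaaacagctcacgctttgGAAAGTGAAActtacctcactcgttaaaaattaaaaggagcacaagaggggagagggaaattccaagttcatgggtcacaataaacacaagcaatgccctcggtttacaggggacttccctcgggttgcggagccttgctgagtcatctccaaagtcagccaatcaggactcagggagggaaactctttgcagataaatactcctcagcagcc
Gbp5: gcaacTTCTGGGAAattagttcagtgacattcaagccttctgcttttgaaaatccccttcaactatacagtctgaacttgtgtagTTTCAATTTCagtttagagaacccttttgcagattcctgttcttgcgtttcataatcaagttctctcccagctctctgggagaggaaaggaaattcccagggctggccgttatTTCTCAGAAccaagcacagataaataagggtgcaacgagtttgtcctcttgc
Gbp2: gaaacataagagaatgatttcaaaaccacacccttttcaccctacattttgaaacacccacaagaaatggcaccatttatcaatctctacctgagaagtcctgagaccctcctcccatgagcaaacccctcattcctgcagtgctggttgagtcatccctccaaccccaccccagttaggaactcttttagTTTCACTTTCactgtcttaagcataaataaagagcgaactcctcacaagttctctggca
Isg15: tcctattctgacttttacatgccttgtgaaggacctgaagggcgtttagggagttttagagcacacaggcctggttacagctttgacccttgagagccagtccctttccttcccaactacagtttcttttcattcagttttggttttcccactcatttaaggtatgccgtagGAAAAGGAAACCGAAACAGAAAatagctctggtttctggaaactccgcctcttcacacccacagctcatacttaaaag
Cxcl10 has 1 ISRE match 213 bases before its start, Gbp5 has 2 GAS matches and 1 ISRE match, Gbp2 has 1 ISRE match 59 bases before its start, and Isg15 has 3 overlapping ISRE matches from 78 bases before it. The Cxcl9 window holds neither string of letters. Of 27025 genes with a promoter entry, 8.13% hold a GAS match, 3.46% an ISRE match and 11.1% either. Of the 27 interferon gamma genes 17 have an entry and 15 of these hold either, and of the 33 type I genes 25 have an entry and 16 hold either. For cDC1 identity genes this was 4 of 21. A match is a string of letters and no measurement of binding.

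Genes of CCR7-positive dendritic cells were also higher in CTX than in MRX. Of 20 listed, 13 could be compared and 10 were called higher, with a median log2 ratio of 2.21 with genes at 0 at their bound. With Xcr1 required 9 of 9 were called higher. Ccr7 was at 16.8 CPM in MRX and 698 CPM in CTX over cells with Xcr1, with 2 of 24 and 9 of 18 cells positive, a log2 ratio of 5.29 (4.12 to 7.02) and 5.12 in the core. Of the 9 CTX cells, 5 also had Mgl2 or Cd209a and 5 had no Flt3, and 3 of the 8 core cells had Ccr7. Marcksl1, a membrane and actin-binding protein, was higher by 2.85 (2.08 to 3.81), and Cd40, the receptor for help from CD4 T cells, by 2.06 (1.11 to 3.27). The cDC2 list had 1802 CPM in the CTX cells with Xcr1 and 468 CPM in MRX, where Cd209a, Clec10a, Mgl2 and 4 others of 12 listed were at 0, values that moved with these ratios.

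Zeb2, a factor of monocytes and cDC2, had 1 count in MRX and 411 in CTX, a log2 ratio of 7.07 (4.95 to 12.75), and 128 of the CTX counts were in cells with Xcr1. Il1b, the inflammatory cytokine, was higher in CTX by 1.19 over all gated cells, yet its ratio was -1.63 in the core, so its direction depended on the cells counted.

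The identity list of cDC1 holds Xcr1 and Clec9a, which the rule used, so it is counted here without them. Over the whole gate 8 of 18 compared identity genes were called lower in CTX and 1 higher, among the lower ones Ppt1 (a lysosomal thioesterase, -1.68, -1.93 to -1.43) and Rab7b (an endosomal GTPase, -1.46, -1.85 to -1.08). With Xcr1 required 1 of 17 was called lower, and Ppt1 stood at -0.94 there and -0.20 in the core, Rab7b at -0.87 and -0.27. Some genes outside the lists kept a ratio beyond -1 with Xcr1 required: Hepacam2 was at -2.02 (-3.03 to -1.16), Tsc22d3, a glucocorticoid-induced gene, at -2.02 (-3.03 to -1.16), and Iqgap2, a scaffold protein of the cytoskeleton, at -2.97 (-4.99 to -1.58). In the core Iqgap2 was at -2.96.

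**Figure D3:**
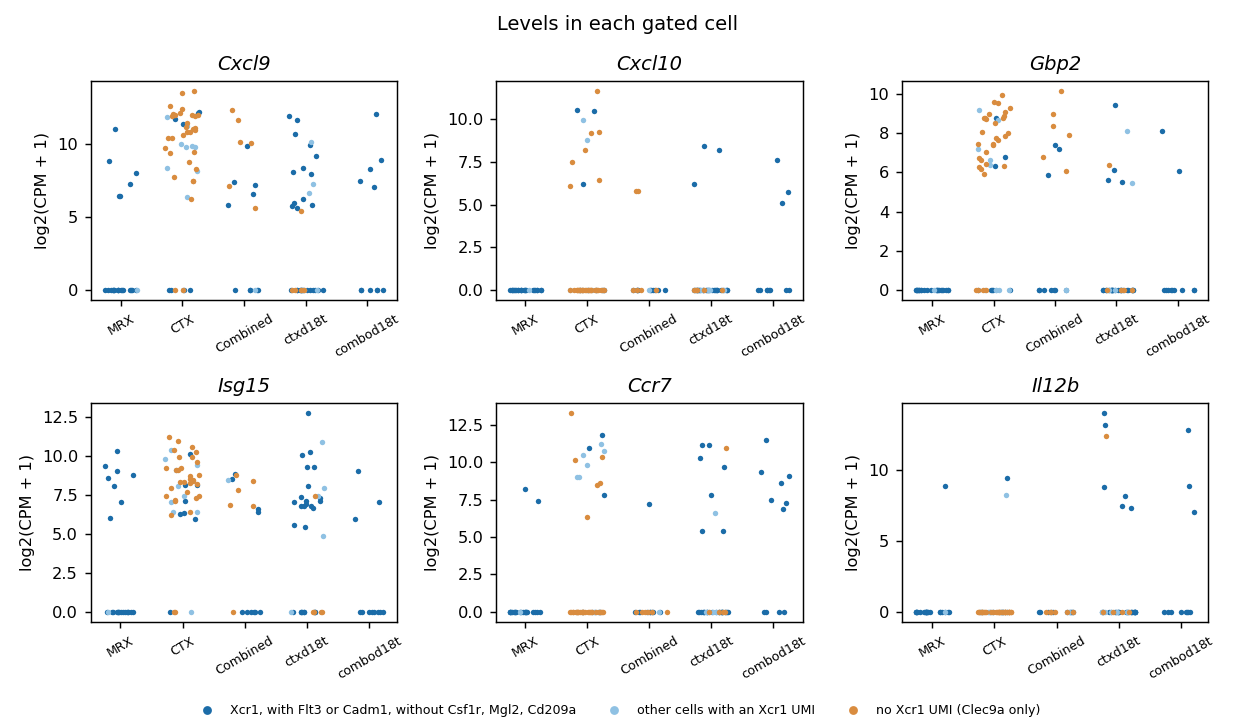
Level of Cxcl9, Cxcl10, Gbp2, Isg15, Ccr7 and Il12b in each gated cell, as log2 of CPM + 1, with libraries on the horizontal axis and colours as in the stacked shares. Points at 0 are cells with no UMI; Gbp2 has no UMI in 24 MRX cells, and Cxcl9 is detected in 13 of 18 CTX cells with Xcr1 and in 30 of 32 without it.

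The pair of Combined against CTX shares the CTX library with the pair above. All 4 listed T cell chemokines, 9 of 13 compared genes of CCR7-positive dendritic cells and 5 of 20 interferon gamma genes were called lower in Combined. Of 4679 genes compared 3.57% were called higher and 7.33% lower in Combined, and with Xcr1 required 4.63% and 8.23% of 2526. Cxcl9 was at 594 CPM in Combined and 2268 CPM in CTX over all gated cells, a log2 ratio of -1.93 (-2.18 to -1.70). With Xcr1 required it was -3.25 (-3.87 to -2.71), and in the core -3.25. Among all other kept cells Cxcl9 was at 490 CPM in Combined and 719 CPM in CTX. The Combined cells without Xcr1 held Cxcl9 in 6 of 6 cells, while 5 of the 11 with Xcr1 did.

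Cxcl10 had 2 counts in Combined and 123 in CTX, a log2 ratio of -4.38 (-7.62 to -2.67), and with Xcr1 it had 0 against 62, at least 14.4-fold lower. Cxcl11 was lower by -3.59 (-5.30 to -2.41) and Cxcl16 by -1.64 (-2.16 to -1.17). All 4 were called lower over the gate and with Xcr1, but in the core Cxcl16 was at -0.75, on 14 counts against 19. Of the interferon gamma genes, 5 of 20 compared were called lower and 0 higher, with a median of -0.72 against 0.02 for all genes. With Xcr1 required 8 of 14 were called lower, with a median of -1.23. Cd274 was at -1.44, at -2.37 (-3.35 to -1.55) with Xcr1 and at -1.71 in the core, but at -0.81 without cycling and CCR7-type cells. Of the type I interferon genes, 6 of 18 were called lower, and with Xcr1 2 of 11. Isg15 among them was at -1.59 (-2.09 to -1.14), and at -1.26 in the core, but at -0.66 where Xcr1 and Clec9a were both required.

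Maturation genes were lower in Combined as well. Ccr7 had 2 counts in 1 Combined cell and 296 counts in 15 CTX cells, a log2 ratio of -5.64 (-8.88 to -3.96), and -5.48 in the core. Of the list of CCR7-positive dendritic cells 9 of 13 were called lower, and 7 of 8 with Xcr1. Cd86, a ligand of CD28 on T cells, was at -1.09 (-1.45 to -0.75), at -1.51 (-1.97 to -1.07) with Xcr1 and at -0.88 where Xcr1 and Clec9a were both required. Nfkbia, a target and inhibitor of NF-kB, was at -1.53 (-1.97 to -1.12), and at -0.71 without cycling and CCR7-type cells. Markers of cDC2 moved with these genes: with Xcr1 required 4 of 5 compared were called lower in Combined, Mgl2 and Cd209a were each detected in 6 of 18 CTX and 0 of 11 Combined cells, and 5 of the 9 CTX cells with Ccr7 had either. Core cells have neither gene by choice. The median ratio of the costimulatory and coinhibitory list was -0.23, with 4 of 15 called lower.

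Of monocyte and macrophage markers 3 of 7 compared were called lower in Combined and 0 higher, and of cDC2 markers 3 of 8. With Xcr1 required 1 of 4 monocyte and macrophage markers was called lower. Csf1r was at -1.50 (-2.72 to -0.52), Fcgr2b, an inhibitory Fc receptor, at -1.91 (-2.57 to -1.32), and Cybb, a subunit of the phagocyte oxidase, at -1.30 (-1.67 to -0.95). Thinned to 2000 UMIs, Csf1r was at 0.33 on 3 counts against 7 and Cybb at -0.74. Cd209a had 0 counts against 49, at least 6.25-fold lower. The share of gated cells without Xcr1 was 64% in CTX and 35.3% in Combined, which moves with these genes. The part of that share in the ratios of the whole gate was not tested, and the ratios with Xcr1 required and in the core are given for that reason.

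Without Xcr1 and Clec9a, 17 identity genes were compared and 3 were called higher in Combined and 0 lower, and 1 of 16 was higher with Xcr1 required. Cd24a, a surface glycoprotein of cDC1, was at 1.58 (1.21 to 1.95) over all gated cells, at 0.87 (0.48 to 1.26) with Xcr1 and at 0.00 in the core. Plet1, a lipid-anchored surface protein, had 60 counts in 6 of 11 Combined cells and 12 counts in 3 of 18 CTX cells with Xcr1, a log2 ratio of 2.82 (1.94 to 3.88), and 2.11 in the core. Itgae, an integrin of cDC1, was at 1.10 (0.19 to 2.04), but at -0.32 in the core, on 13 counts in each library. Outside that list, Lima1, which binds actin, was at 2.63 (1.60 to 3.93), and at 1.25 in the core, on 21 counts against 7.

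**Figure D4:**
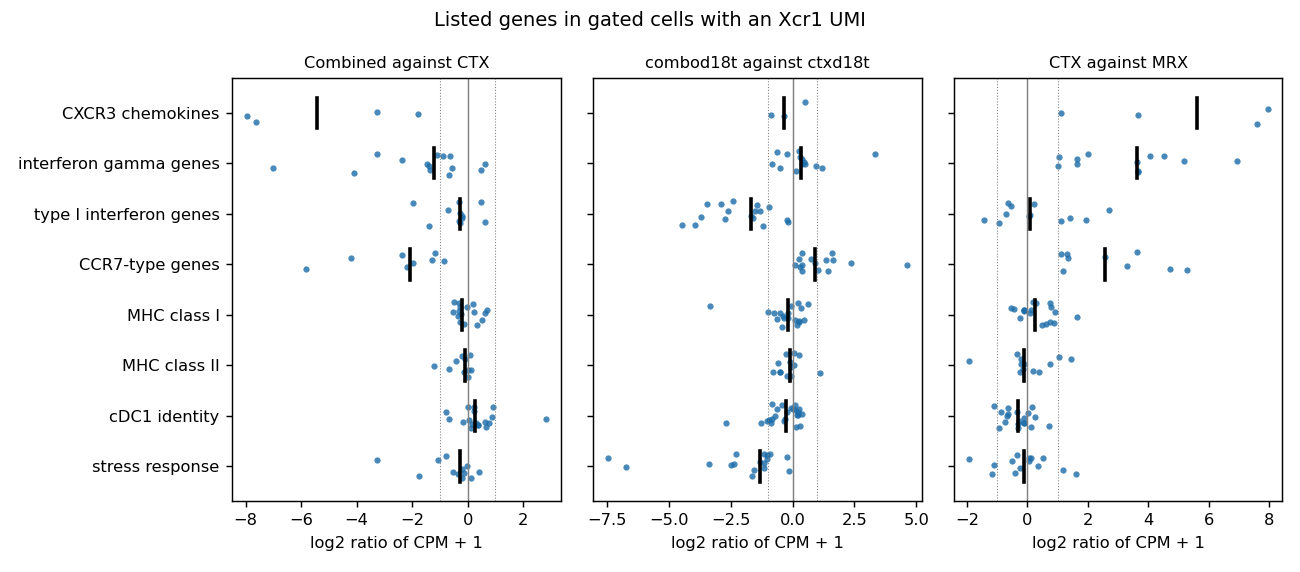
Log2 ratio of CPM + 1 for each compared gene of 8 lists over cells with an Xcr1 UMI, in 3 pairs of libraries; each point is a gene, black bars are list medians and dotted lines mark a ratio of 1 in size. Most chemokines and interferon gamma genes lie below 0 in Combined against CTX and above 0 in CTX against MRX, type I interferon and stress genes lie mostly below 0 in combod18t against ctxd18t, and a gene at 0 counts in 1 library is drawn at its CPM + 1 ratio, which is no bound.

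In the pair of Combined against MRX, the difference in Cxcl9 over all gated cells was not found with Xcr1 required. Of 3083 genes compared 9.11% were called higher in Combined and 4.67% lower, and with Xcr1 required 5.43% and 5.02% of 2632. Cxcl9 was higher in Combined by 2.28 (1.76 to 2.86) over all gated cells, but with Xcr1 the ratio was 0.40 (-0.37 to 1.15) and in the core 0.57, so no difference was detectable at this depth in those cells. Gbp2 had 39 counts in Combined and 0 in MRX, at least 14.3-fold higher, and 8 counts in 3 of 11 cells with Xcr1, at least 4.52-fold higher. Of the interferon gamma genes 6 of 9 compared were called higher, and 2 of 5 with Xcr1. Batf3 was lower in Combined by a ratio of -1.08 (-2.26 to -0.03), and Plet1 was higher by 2.69 (1.75 to 3.86). Hspa1a, a heat shock gene, was at -4.68 (-7.94 to -2.95), with 2 counts in Combined and 64 in 7 MRX cells. All 3 of these pairs share libraries, so they are not independent of each other.

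In the day 18 pair, most type I interferon and stress genes compared were called lower in combod18t than in ctxd18t. Xcr1 was detected in 32 of 37 and 11 of 11 of the cells compared. Of 4715 genes compared 4.11% were called higher and 7.34% lower in combod18t, and with Xcr1 4.91% and 6.88% of 4462. Of 17 type I interferon genes compared 15 were called lower and 0 higher, with a median log2 ratio of -1.61 against -0.03 for all genes. With Xcr1 it was 14 of 17, with a median of -1.68. Markers of other dendritic cells moved with them: 4 of 4 compared cDC2 markers were called lower (3 of 3 with Xcr1) and 3 of 4 plasmacytoid markers (2 of 4), and their part in the difference was not tested.

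Isg15 had 18 counts in 3 of 11 combod18t cells and 265 counts in 23 of 37 ctxd18t cells, a log2 ratio of -2.26 (-3.05 to -1.58), with 44.5% of the ctxd18t counts in 1 cell. Ifi44, another interferon-induced gene, was spread more evenly, with 14 counts in 6 of 11 cells against 245 in 30 of 37, and its ratio was -2.50 (-3.41 to -1.75). Irf7, which amplifies type I interferon, was at -2.63 (-3.82 to -1.71), with 4 and 25 positive cells. Mx1, an antiviral GTPase, was at -2.73 (-5.14 to -1.22). Ifih1, the cytoplasmic sensor of long double-stranded RNA, was at -4.33 (-7.55 to -2.61), and 57.7% of its ctxd18t counts came from 1 cell. Bst2 (tetherin), at -1.10 (-1.62 to -0.63), and Slfn5, at -1.31 (-1.85 to -0.81), had smaller ratios, which were -0.97 and -0.79 without cycling and CCR7-type cells. Without the top cell of each library the ratio was -3.09 for Isg15, -3.10 for Ifi44 and -3.59 for Mx1. Among all other kept cells of these libraries the ratio was -0.90 for Isg15, -1.02 for Ifi44 and -0.70 for Irf7, so the direction was also found outside the gate.

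Tlr3, the endosomal double-stranded RNA sensor typical of cDC1, was lower in combod18t with 5 counts in 3 cells against 93 in 23 cells, a ratio of -2.55 (-4.26 to -1.33). Over the 5 libraries it was at 50.5, 43.7, 80.0, 141 and 20.9 CPM with Xcr1 in the order MRX, CTX, Combined, ctxd18t and combod18t. Ifi205, an interferon-induced member of a gene family with near-identical copies, was at -1.01 (-1.54 to -0.52), and at -0.96 where Xcr1 and Clec9a were both required. Of the interferon gamma genes, 2 of 16 compared were called higher and 1 lower, with a median of 0.20. Iigp1, the highest of them, was at 3.38, but 93.2% of its 74 combod18t counts were in 1 cell and the ratio was 0.34 without the top cell of each library.

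Stress genes were lower in combod18t in 12 of 17 compared, with a median of -1.24, and in 13 of 17 with Xcr1. Hspa1a had 0 counts in combod18t and 128 in 11 ctxd18t cells, at least 14.0-fold lower, and its near-identical copy Hspa1b had 0 against 75, at least 8.20-fold lower. Fos, an immediate early gene, was at -1.79 (-2.14 to -1.47), Dusp1, a phosphatase induced with it, at -1.61 (-2.17 to -1.10), and Atf3 at -2.47 (-3.26 to -1.80). Among all other kept cells the ratio was -2.12 for Hspa1a and -0.76 for Fos. Such genes are known to respond to tissue dissociation, and they moved with the type I interferon genes here. Their part in that difference was not tested.

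Other genes of the day 18 pair concern inflammation and uptake. Il1b was lower in combod18t, with 117 counts in 9 of 11 cells against 1616 in 32 of 37, a ratio of -2.18 (-2.46 to -1.91), and -0.78 among all other kept cells. Ccl4, an inflammatory chemokine, had 20 counts in 1 cell against 389 in 16 cells, a ratio of -2.66 (-3.40 to -2.03). Clec7a, the beta-glucan receptor dectin-1, was at -3.48 (-4.52 to -2.65), with 3 and 14 positive cells, but at -0.53 in the core, on 11 counts against 34. Cd300a, an inhibitory receptor for lipids of dying cells, had 0 counts against 115 in 16 cells, at least 12.6-fold lower. Mrc1, the mannose receptor, also had 0 counts in combod18t, but 99.2% of its ctxd18t counts came from 1 cell.

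Of the genes called higher in combod18t, some held and others fell when the top cell of each library was left out. Msrb3, a methionine sulfoxide reductase, was detected in 8 of 11 cells against 7 of 37, with a ratio of 3.24 (2.23 to 4.61), and 3.48 without the top cell of each library. Bcl2l14 was at 3.12 (2.55 to 3.78) in 4 and 7 cells, and at 2.76 without the top cells. Scin, an actin-severing protein, was at 2.52 (2.05 to 3.05) in 6 and 8 cells, and at 2.37 without them. Ly75, the uptake receptor DEC-205, was at 1.21 (0.91 to 1.50), and at 0.73 without the top cells. H2-Ob, an inhibitor of peptide loading on MHC class II, was at 1.12 (0.33 to 1.92) with Xcr1 required, in 9 and 20 cells, at 0.97 in the core and, over the whole gate, at 1.11 without the top cells. Of the list of CCR7-positive dendritic cells 8 of 17 compared were called higher, but Ccr7 itself was at 1.08 (0.74 to 1.42) with all cells and at -0.040 without the top cells, and Fscn1 turned from 1.51 to -1.25.

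Cxcl9 in the day 18 pair rested on 1 cell. It had 130 counts in 5 of 11 combod18t cells and 248 in 17 of 37 ctxd18t cells, a ratio of 0.68 (0.36 to 0.99), and 83.9% of the combod18t counts were in a single cell. Without the top cell of each library the ratio was -1.20. All other kept cells had 43.6 CPM in combod18t and 132 CPM in ctxd18t.

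Il12b, which encodes the p40 chain of interleukin 12, was found at high counts in a few cells of the day 18 libraries. With Xcr1 required, its level was 16.8 CPM for MRX, 59.5 for CTX, 0 for Combined, 839 for ctxd18t and 988 for combod18t, from 1, 2, 0, 6 and 3 positive cells. In ctxd18t, 3 cells held 134, 172 and 348 Il12b UMIs and also had Ccr7, Fscn1 (an actin bundler) and Ccl22 (a chemokine for CCR4); the cell with 134 had no Xcr1 UMI. In combod18t, 1 cell held 222 Il12b UMIs with 87 for Ccr7, 86 for Fscn1 and 60 for Ccl22. These cells carried 97.0% of the Il12b counts of ctxd18t and 94.1% of those of combod18t. In them Cxcl9 had 0 or 1 UMI. No gated cell of MRX, CTX or Combined had all 4 of these genes.

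Cells with Il12b but without that set had 2 to 12 Il12b UMIs, and each of them also had Cxcl9, with 2 to 109 UMIs. In combod18t the cell with 109 Cxcl9 UMIs, the highest of that library, had 12 for Il12b. In CTX the cells with 6 and 9 Il12b UMIs had 73 and 56 for Cxcl9, and in MRX the cell with 5 had 22. The ratio of Il12b between combod18t and ctxd18t was 0.09 (-0.13 to 0.31), and -2.76 without the top cell of each library, so with 3 and 7 positive cells no direction can be given.

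**Figure D5:**
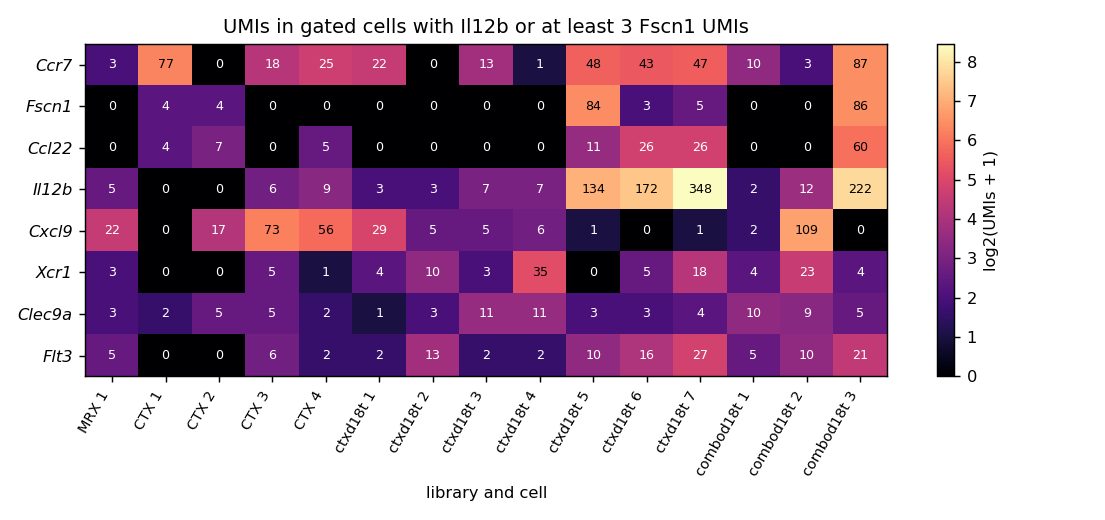
UMIs of Ccr7, Fscn1, Ccl22, Il12b, Cxcl9 and 3 identity genes in the 15 gated cells with an Il12b UMI or at least 3 Fscn1 UMIs, with cells in columns and colour as log2 of UMIs + 1. The 3 ctxd18t cells and 1 combod18t cell with all of Ccr7, Fscn1, Ccl22 and Il12b have 134 to 348 Il12b UMIs and at most 1 Cxcl9 UMI.

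The share of cells in a CCR7-type state was counted after thinning to 2000 UMIs, as at least 3 UMIs over 9 genes. It held 1 of 24 MRX, 12 of 50 CTX, 0 of 17 Combined, 4 of 37 ctxd18t and 1 of 11 combod18t cells, and without thinning 4, 40, 5, 19 and 8 cells. Combined was lower than CTX by 24 points (interval of the difference -37.4 to -3.17), and with Xcr1 required 0 of 11 stood against 7 of 18, where the cDC2 markers given above moved with it. CTX exceeded MRX by 19.8 points (1.06 to 33.7). Combod18t differed from ctxd18t by -1.72 points (-17.5 to 27.7).

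Genes of antigen presentation had list medians between -0.16 and 0.40 over 3 lists and 4 pairs. H2-K1, a class I heavy chain whose reads may be shared with close copies, was between 1287 and 1853 CPM with Xcr1, and B2m, the shared light chain, between 2576 and 4000 CPM. Cd74, the invariant chain of class II, was between 11211 and 15629 CPM. Of 20 class I genes compared, 0 were called in Combined against CTX, 3 were called higher in CTX than in MRX, and 2 were lower in combod18t than in ctxd18t. Of the class II genes, 1 of 13 was called lower in Combined than in CTX, and 2 were higher and 1 lower of 13 in CTX against MRX. Wdfy4, needed for cross-presentation, was between 552 and 850 CPM with Xcr1, and of the cross-presentation list 1 of 19 was called lower in Combined than in CTX. In CTX against MRX 4 of 18 of that list were called higher and 2 lower, beside 12.8% and 4.98% of all genes.

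Receptors for dying cells and their ligands were read as the title concerns MERTK, a receptor tyrosine kinase for apoptotic cells of macrophages. Mertk had 0 counts in all 96 cells with an Xcr1 UMI and 5 counts in 3 CTX cells without one, against 6.45 to 13.5 CPM in all other kept cells. Axl, its relative, had 0 counts with Xcr1 in MRX, CTX, Combined and combod18t and 17.1 CPM in ctxd18t, and 41 counts in CTX cells without Xcr1. Gas6, a ligand of both, had 0 counts in the gated cells of each library. The count of 0 allows up to 1.87 CPM of Mertk over the 96 cells together (3 counts of 1606925), for counting error only. By library the limit was 10.1 CPM (MRX), 11.9 (CTX), 17.1 (Combined), 4.66 (ctxd18t) and 12.6 (combod18t), against 12.3, 13.5, 7.88, 9.47 and 6.45 CPM in the other kept cells. In Combined and combod18t the limit lies above that level, so a lower level of Mertk was not detectable there. The limit of 3 counts is below the upper end of the exact Poisson interval. Over the core cells that end was at 12.7 CPM in MRX, 30.4 in CTX and 7.26 in ctxd18t. A lower level was thus not shown in MRX and CTX either.

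Timd4, a receptor for phosphatidylserine on dying cells, was detected in cDC1 at levels that differed between libraries. With Xcr1 required it was at 94.3 CPM for MRX, 313 for CTX, 45.7 for Combined, 266 for ctxd18t and 50.2 for combod18t, so it was lower in Combined than in CTX and lower in combod18t than in ctxd18t. The ratio of Combined to CTX was -2.82 (-4.10 to -1.85) over all gated cells and -4.22 in the core, but -0.93 where Xcr1 and Clec9a were both required. That of combod18t to ctxd18t was -2.44 (-3.44 to -1.63), with 5 of 11 and 15 of 37 positive cells, and -1.54 in the core. In the core 66.0% of the 47 CTX counts and 44.0% of the 75 ctxd18t counts were in 1 cell of each library. Without the top cell of each library the ratios over all gated cells were -3.59 for Combined to CTX and -3.03 for combod18t to ctxd18t. The ratio of CTX to MRX was 1.19 (0.61 to 1.83). Havcr2 (TIM-3), another receptor of this family, was between 345 and 710 CPM with Xcr1, and Cd36, a scavenger receptor, between 121 and 222 CPM.

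Of 38 cell cycle genes 8 could be compared in the day 18 pair, and 5 were called lower in combod18t and 0 higher, with a median of -1.56. In Combined against CTX 3 of 7 compared were called higher and 0 lower, with a median of 0.97, and 1 of 5 with Xcr1. Of the called ones, Top2a went from 1.59 to 0.31 without the top cells and to -2.73 in the core, and Stmn1, a tubulin regulator, from 1.76 to -0.43 in the core. Cell cycle UMIs were counted per cell as for the CCR7-type state. After thinning to 2000 UMIs, at least 3 UMIs over 38 cell cycle genes were found in 2 of 24 cells of MRX, 5 of 50 of CTX, 4 of 17 of Combined, 7 of 37 of ctxd18t and 1 of 11 of combod18t, and 22, 43, 17, 32 and 11 without thinning. The difference was 13.5 points (-4.48 to 37.9) for Combined against CTX and -9.83 points (-26.8 to 20.3) for combod18t against ctxd18t, and both intervals include 0. Mki67, a marker of proliferating cells, was at 12.6 CPM in combod18t and 93.3 CPM in ctxd18t, a ratio of -2.80 (-5.21 to -1.29), with 3 and 12 positive cells. Top2a, the topoisomerase of dividing cells, had 2 counts against 62, of which 56.5% were in 1 cell, a ratio of -3.20 (-6.42 to -1.43). It turned to 0.73 when thinned and to 0.29 without cycling and CCR7-type cells, each on at most 3 counts in all. Top2a is 1 of the genes that define the cycling class, so leaving that class out removed its counts by choice of cells.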

How the data were processed

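Live CD45-positive cells were captured with the 10x 3' V4 on-chip multiplexing chemistry, per the labels' protocols. The deposited values are raw UMI counts per gene and cell. The authors made them with Cell Ranger, and the file headers give version 9.0.1. The submitters' processing notes name GRCm39 and Seurat 5.2.0, with no role given. Cells with at least 200 genes and at most 15% mitochondrial counts were kept, which removed 52 to 166 cells per library. The automatic doublet call of Scrublet (scanpy 1.11.5) marked at most 0.112% of cells, so doublets were kept in the main result. As an alternative the cells scoring above the cut for the highest 5% were removed (165 to 378 per library), among them 1 of the 139 gated cells. Counts were summed over gated cells, with numpy 2.4.6, scipy 1.17.1 and pandas 2.3.3. Intervals are Clopper-Pearson for shares, Newcombe for differences, exact Poisson for CPM and exact conditional binomial for ratios. Log2 ratios use a pseudocount of 1 CPM, so ratios of genes at low levels come out smaller. Where a library had 0 counts a bound was set with 3 counts in that library. The counting steps were tested on simulated counts with 200 genes changed by a log2 ratio of 2. For Combined against CTX (4682 genes) all changed genes were called with the right direction and 1.34% of unchanged genes were called. The simulated counts held counting error only, with no variation between cells or mice, and the changed genes were drawn from genes with many counts. These values check the arithmetic and are no error rates for these data.

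The members, gene lists and rules were chosen with earlier results of these data known. Named genes are the cDC1 identity list, listed genes called in a pair, the 10 highest and lowest ratios of each pair outside marker lists, antigen receptor, mitochondrial, ribosomal and haemoglobin genes and Xist, reaching at least 0.5 times the level of other cells, and Cxcl9, Il12b, Mertk and Axl; only some are printed, and some are not reported here. Levels of a few further listed genes (Ifi44, Id2, Zbtb46, Gas6, Havcr2, Cd36, B2m, H2-K1 and Cd74 among them) are given to describe their list and were chosen after their values were seen. B cells and Lyz2-rich cells, used as a background, had at least 2 Cd79a and at least 10 Lyz2 UMIs. Promoter windows come from a RefSeq table of GRCm38.p6 and are used with no coordinates of the files. Alternatives were another pseudocount, no filter on low counts, other gates, thinning and leaving out the cell with most counts. The 8 lists of other cell types were read to check the gate. Marker levels of T cells, NK cells, neutrophils and epithelial cells gave at most 1 compared gene per pair.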

Additional observations from a re-analysis of the deposited data

Results flagged for a closer look

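Each group is 1 library, so no sample could be tested as an outlier within a group. The entries here are genes whose ratio had opposite directions in the pair Combined against CTX and in the pair combod18t against ctxd18t, with a counting interval that excludes 0 in both. The difference between the pairs was not tested. The labels of the second pair carry d18, and whether the pairs differ in harvest day or library preparation is not settled by the labels. Ccr7 had a log2 ratio of -5.64 in the first pair and 1.08 in the second, the latter becoming -0.040 without the cell with most counts in each library. In that second pair 7 of 11 combod18t and 9 of 37 ctxd18t cells had Ccr7. Ccl22, a chemokine of mature dendritic cells, had -5.58 and 1.53; the first rests on 0 counts in Combined, where the bound is at least 4.21-fold lower, and the second becomes -5.73 without those cells, with 0 counts left in combod18t. Cxcl9 had -1.93 and 0.68, the latter -1.20 without those cells. Top2a had 1.59 and -3.20. The first becomes 0.31 without those cells and -2.73 in the core cells. The second becomes 0.73 when thinned and 0.29 without cycling and CCR7-type cells, where the cycling class is chosen in part by Top2a.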

How the results depend on the processing

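No paired analysis was possible because each group is 1 library, and no replicate could be left out. Over 1425 recomputed values, 132 of the shares and counts stayed within their interval or within 1.5 times and 48 moved, and of single genes 1050 stayed within the counting interval, 181 moved out of it and 14 turned direction. Of 103 gene ratios past 2-fold, 39 fell below it in at least 1 setting without turning, 78 times in all, 33 of these within the counting interval. Requiring both Xcr1 and Clec9a, thinning before gating, requiring Xcr1, the core cells, a gate on Xcr1 and Flt3 alone and a sum of at least 3 turned the share difference of CTX against MRX from 0.121 to -0.270, -0.135, -0.239, -0.333, -0.329 and -0.0223 points. For Combined against CTX it turned from -0.182 to 0.0886 with both genes, 0.0905 thinned, 0.0435 with Xcr1, 0.134 in the core and 0.133 with Xcr1 and Flt3. The cycling difference moved with both genes to -5 and in the core to -15 points for Combined against CTX, and to 15.9 and 16.3 for CTX against MRX. The CCR7-type difference moved without thinning to -50.6 and with Xcr1 to -38.9 for Combined against CTX, and to 63.3 and 34.7 for CTX against MRX.

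Genes past a ratio of 2-fold, higher and lower, numbered 173 and 402 for Combined against CTX, 200 and 449 for combod18t against ctxd18t, 667 and 235 for CTX against MRX and 293 and 152 for Combined against MRX. Thinned to 2000 UMIs they were 25 and 75, 16 and 45, 138 and 48, and 36 and 29. Without the filter on low counts they were 1583 and 3177, 1620 and 3887, 3667 and 1760, and 2710 and 2127. With both Xcr1 and Clec9a they were 81 and 145 for Combined against CTX, 139 and 146 for CTX against MRX, and 145 higher for Combined against MRX. With Xcr1 required they were 229 lower for Combined against CTX, 229 and 147 for CTX against MRX, and 150 higher for Combined against MRX. In the core they were 89 and 91 for Combined against CTX, 265 lower for combod18t against ctxd18t, 118 higher for CTX against MRX and 129 higher for Combined against MRX. A pseudocount of 10 CPM gave 105 higher for Combined against CTX.

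Direction turned for 14 ratios of genes that were called over the whole gate. For Combined against CTX, Il1b became 0.69 with both genes and 1.72 in the core, Csf1r 0.33 and Idh2, a mitochondrial dehydrogenase, -0.028 when thinned, and Itgae -0.32, Top2a -2.73 and Stmn1 -0.43 in the core. For combod18t against ctxd18t, leaving out the cell with most counts in each library gave -0.040 for Ccr7, -1.25 for Fscn1 and -5.73 for Ccl22. Top2a became 0.73 when thinned and 0.29 without cycling and CCR7-type cells, a setting that removes its counts because the cycling class is chosen in part by it. For CTX against MRX, Il1b became -0.74 with both genes and -1.63 in the core. Of ratios that were not called, Cxcl9 and Il12b in the day 18 pair turned to -1.20 and -2.76 without that cell, and Il12b to -0.28 as a mean over cells, -0.66 thinned and -0.11 in the core. Thinned and core values rest on few counts, and 8 CTX core cells limit each comparison with CTX. The cause of the other changes was not tested.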
